A study of Arabidopsis thaliana with 12 samples.

Results

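The nuclear photosynthesis genes studied here are the Arabidopsis thaliana genes for the chlorophyll-binding antenna proteins (LHCA and LHCB), for the nuclear-encoded subunits of photosystem I (PSA) and photosystem II (PSB), and for the small subunit of Rubisco (RBCS) with Rubisco activase (RCA). They were listed by locus and gene family, with earlier results of these data already known. Of 44 loci listed, 43 were in the expression table of 26702 genes: 17 antenna genes (4 LHCA and 13 LHCB), 21 photosystem genes (12 PSA and 9 PSB) and 5 Rubisco genes (4 RBCS and RCA). LHCB1.5 was not analysed here.

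Messenger RNA selected by its poly(A) tail was sequenced from 4 groups of 3 replicates. All 12 libraries came from clv3 epfl1 epfl2 epfl4 epfl6 plants, mutant in the gene of the stem cell peptide CLV3 and in 4 EPFL genes, so the controls carry the mutations too and no library came from an unmutated plant. A replicate was a pool of 10 seedlings at 3 days post germination in 1 ml of liquid medium, labelled as seedling shoot. The mock group received buffer. The EPFL6 group received 8.7 µl of a 10 µM solution of the secreted peptide EPFL6, which computes to 86.2 nM in the medium. The CHX group received 10 µM cycloheximide, an inhibitor of translation by cytosolic ribosomes, 10 minutes before buffer, and the group called CHX plus EPFL6 received cycloheximide and then the peptide. Plants were grown at 21 °C with 18 h of light and 6 h of dark on medium with 1% sucrose, and the time from treatment to collection is not given in the sources used here.

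In a chloroplast, LHCA and LHCB proteins collect light and pass its energy to photosystems I and II, whose electron transport supplies the energy that Rubisco and the Calvin cycle use to fix carbon dioxide. All these members are encoded in the nucleus, translated in the cytosol and imported, and they assemble with partners that the plastid genome encodes. Transcription factors of the GLK family and light signalling through phytochromes and HY5 are known to promote their transcription.

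Libraries held 40.2 to 59.4 M reads (M for 1e+06) without cycloheximide and 71.3 to 106.6 M with it. Values are reads divided by 1 size factor per library, called normalised values below. Of the 26702 genes, 23225 reached values of 10 or more in 3 or more libraries and were tested with limma on log2(value + 1). All 43 members passed that filter, and the lowest member value in any library was 186.5. Errors after ± are the SD of 3 libraries for a level and the standard error of the fit for a log2 fold change. Called means a Benjamini-Hochberg adjusted p under 0.05 over all 23225 genes. Overlapping annotation touches 16 members, among them LHCA4, LHCB1.3, PSAE1, PSBR and RCA, and since the strand setting of the counting is not given in the sources used here, reads of such overlaps cannot be assigned. Root marker genes, at summed values of 8347 to 11347 in mock, go against a harvest free of roots.

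Together the 43 members took 4.97 ± 1.91% of the reads of mock libraries and 4.75 ± 1.44% with the peptide alone (n = 3 each). Their share was 1.46 ± 0.186% for CHX and 1.96 ± 0.296% with both agents (n = 3 each). Their summed normalised value was 2564000 ± 1045000 in mock and 1261000 ± 170400 in CHX, a smaller relative difference. Scaled by library size alone, the median log2 fold change for CHX against mock was -1.69 for the members and -0.73 for all genes. Levels per kilobase of exon in mock ranged from 338704 for RBCS1A, the main gene of the Rubisco small subunit, to 354 for LHCB4.3, a rare form of the minor antenna protein CP29. After RBCS1A came LHCB1.3 at 220047, PSBR at 111305, PSBO1 at 81742, RCA at 79613 and RBCS3B at 77699 per kilobase. These 6 genes held the same ranks in CHX. Apart from LHCB4.3, LHCB2.3 at 507 was the lowest of the 43.

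**Figure D1:**
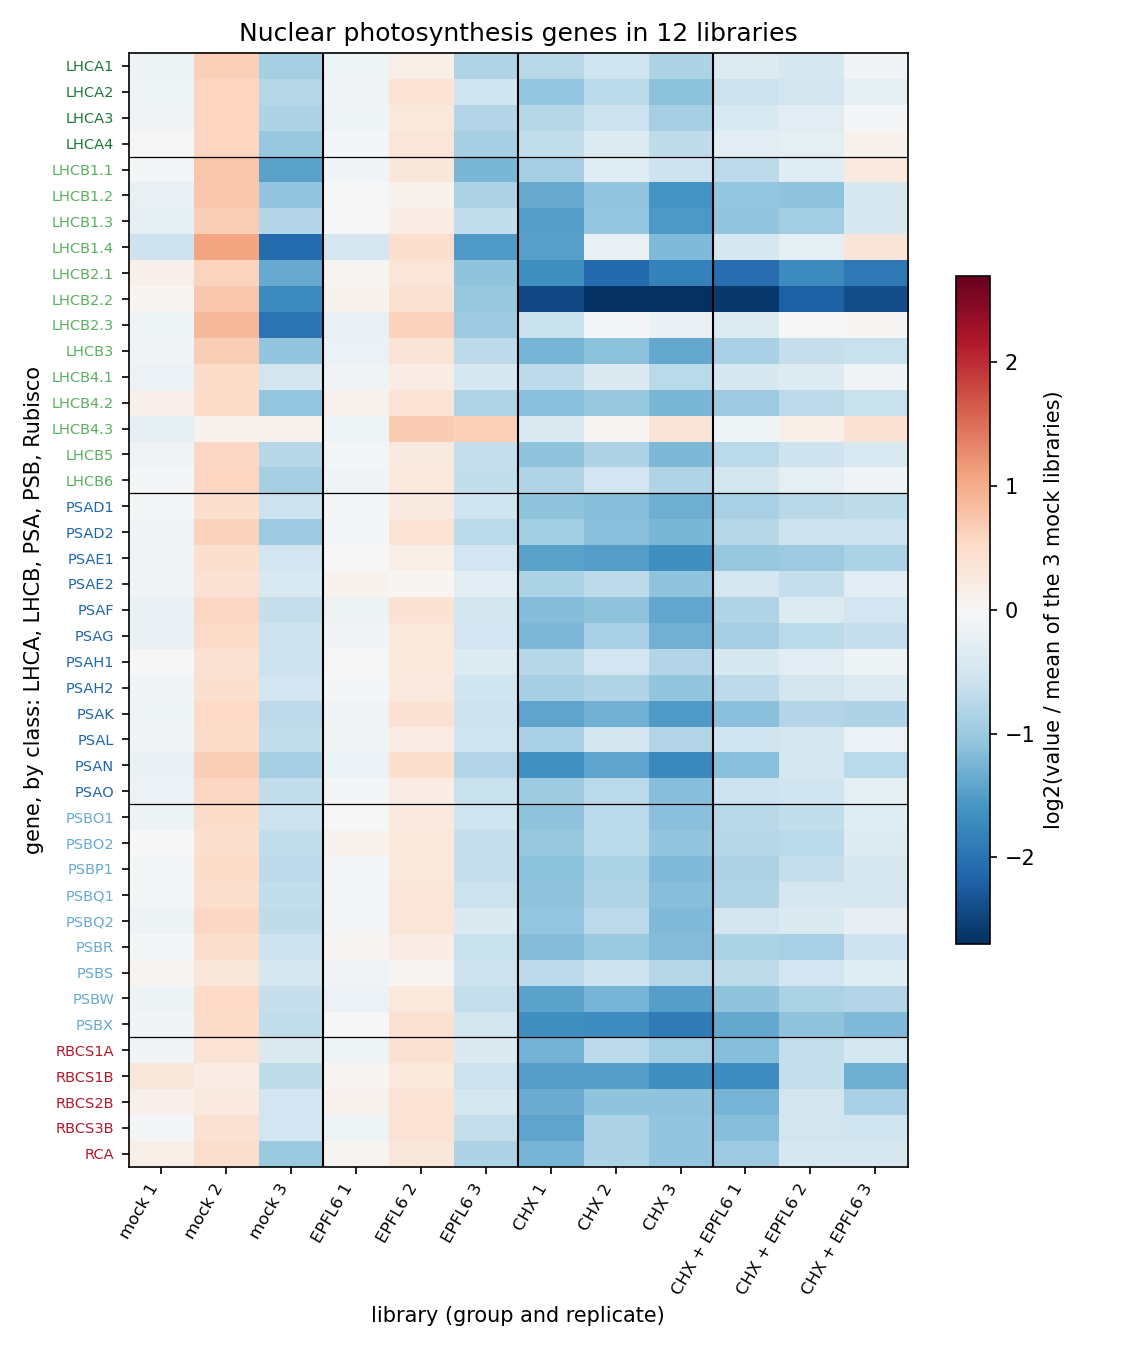
Level of each of the 43 genes (rows, grouped by class) in each of the 12 libraries (columns), as log2 of the normalised value over the mean of the 3 mock libraries. The columns of mock replicate 2 and EPFL6 replicate 2 are the reddest and those of mock replicate 3 and EPFL6 replicate 3 are blue. LHCB2.2 is darkest in the 6 libraries with cycloheximide.

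The members moved together between libraries of the same treatment. The highest mock value was in replicate 2 for 41 of 43 members, and the lowest was in replicate 3 for 42. In EPFL6 the highest value was in replicate 2 for 42 and the lowest in replicate 3 for 42. The median ratio of the highest to the lowest of 3 libraries was 2.3 in mock and 1.9 in EPFL6 for the members, against 1.2 in both for all genes tested. With cycloheximide the members' ratio was 1.3 in both groups, near the 1.2 of all genes. The LHCB genes had the widest spread in mock, with a median ratio of 3.32, and LHCB1.4 reached 8.76 and LHCB2.3 7.28. This spread enters the standard error of every comparison below.

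The antenna sum shows the same pattern. It was 880913, 1502639 and 513258 in the 3 mock libraries and 934019, 1152937 and 574392 in EPFL6. It was 448232, 563554 and 436481 in CHX, and 571389, 626348 and 801291 in CHX plus EPFL6. Mock replicate 3 fell inside the range of the CHX libraries, so these groups overlapped for the antenna. The photosystem sum did not overlap between mock and CHX, at 502539 to 1086371 and 343311 to 423769, and nor did the Rubisco sum, at 565854 to 1072691 and 333792 to 469403.

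**Figure D2:**
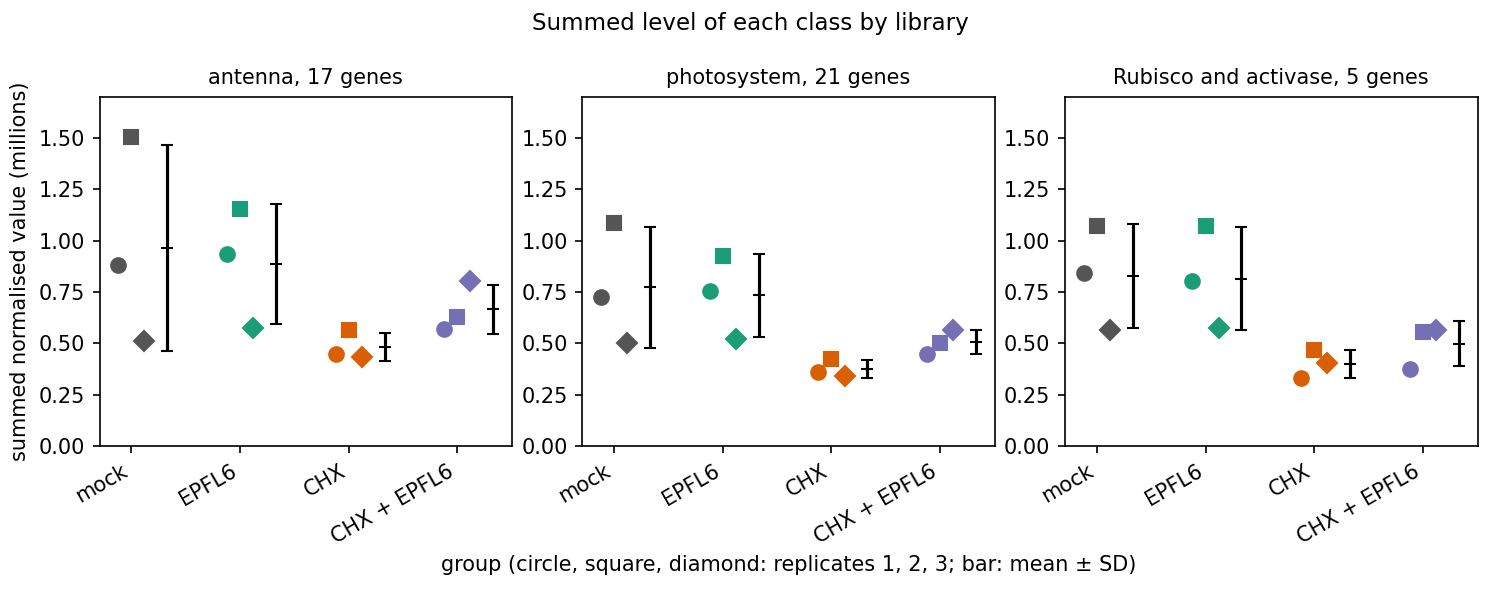
Summed normalised value (divided by 1e+06) for the antenna, photosystem and Rubisco genes in each library (circle, square and diamond for replicates 1, 2 and 3) with the mean ± SD of each group as a bar. The mean antenna sum was 965600 in mock and 482800 in CHX, and mock replicate 3 lies at the level of the CHX libraries.

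The antenna genes with the largest fitted falls under cycloheximide were LHCB2.2 and LHCB2.1, which encode nearly identical LHCB2 proteins of the mobile trimers. Of LHCB1.1, LHCB1.2 and LHCB1.3, which lie within 6835 bases on chromosome 1 and encode the main LHCB1 trimer protein, the last 2 were called and LHCB1.1 was not. Their promoters are shown because the calls of these close paralogs are described below, and differences between paralogs were not tested. Each run is the 250 bases before the annotated gene start, read 5′ to 3′ on the gene's strand from the TAIR10.1 genome with RefSeq gene models: LHCB1.1 at chr1:10475970-10476219 (minus strand), LHCB1.2 at chr1:10473503-10473752 (minus), LHCB1.3 at chr1:10477635-10477884 (plus), LHCB2.1 at chr2:1824481-1824730 (minus) and LHCB2.2 at chr2:1800473-1800722 (minus). Capitals mark CCAATC and the I-box GATAAG on the strand shown or its reverse complement, and no G-box CACGTG or evening element AAAATATCT was found in these 5.
LHCB1.1: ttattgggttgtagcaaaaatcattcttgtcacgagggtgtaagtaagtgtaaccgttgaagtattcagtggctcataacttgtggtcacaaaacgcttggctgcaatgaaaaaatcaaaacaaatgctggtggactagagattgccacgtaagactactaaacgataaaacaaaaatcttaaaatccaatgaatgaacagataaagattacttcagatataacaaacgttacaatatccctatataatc
LHCB1.2: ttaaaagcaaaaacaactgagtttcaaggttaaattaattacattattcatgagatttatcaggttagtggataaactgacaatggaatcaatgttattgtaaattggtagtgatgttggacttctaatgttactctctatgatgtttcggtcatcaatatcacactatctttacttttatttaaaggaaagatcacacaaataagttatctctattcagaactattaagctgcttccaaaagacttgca
LHCB1.3: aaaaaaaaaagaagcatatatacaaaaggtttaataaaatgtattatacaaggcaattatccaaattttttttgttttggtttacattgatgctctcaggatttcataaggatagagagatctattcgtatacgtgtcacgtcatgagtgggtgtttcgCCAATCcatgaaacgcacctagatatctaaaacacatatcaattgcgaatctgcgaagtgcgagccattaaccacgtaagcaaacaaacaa
LHCB2.1: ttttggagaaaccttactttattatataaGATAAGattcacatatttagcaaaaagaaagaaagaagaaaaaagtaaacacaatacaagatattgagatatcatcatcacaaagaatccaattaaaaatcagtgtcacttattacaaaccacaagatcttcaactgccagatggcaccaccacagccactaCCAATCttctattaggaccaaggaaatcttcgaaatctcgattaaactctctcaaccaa
LHCB2.2: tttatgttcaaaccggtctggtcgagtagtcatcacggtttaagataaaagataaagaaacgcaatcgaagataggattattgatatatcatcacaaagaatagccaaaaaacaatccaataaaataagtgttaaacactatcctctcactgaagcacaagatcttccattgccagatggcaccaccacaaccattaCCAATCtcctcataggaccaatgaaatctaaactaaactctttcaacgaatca

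In a global alignment the LHCB2.1 and LHCB2.2 windows were 64.9% identical, and the LHCB1 pairs were 50.5% to 54.5% identical. Over all members, CCAATC on either strand was found in 9 of 17 antenna promoters (52.9%), in 1 of 21 photosystem promoters (4.76%) and in 1 of 5 Rubisco promoters (20.0%), against 10.2% of 27443 promoters of the same length. The G-box CACGTG, a palindrome, was in 9 of 43 (20.9%, against 6.49%), and GATAAG on either strand in 11 of 43 (25.6%, against 12.3%). The evening element was in 0 of 43 (2.36% of all promoters), and TATAAA on either strand in 18 of 43 (41.9%, against 47.4%). A match describes the letters of the window and not a bound factor.

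Cycloheximide alone, compared with mock, lowered most of the photosynthesis genes. Of 43 members, 34 were called lower and 0 higher, against a background of 38.3% of all genes tested called lower and 40.9% called higher (limma). The members' share called lower was 79.1%, and their median log2 fold change was -0.94 where the median of all genes was 0.02. The 0 higher calls held also at an unadjusted p under 0.05 and with edgeR and DESeq2, which called 35 and 38 members lower (39% and 34% of all genes). In 28 of 43 members all 3 CHX libraries lay below all 3 mock libraries, against 38.8% of all genes. Because the members vary together between libraries, the 34 calls are not independent observations. Without replicate 1 of all groups, an alternative chosen after seeing the data, 11 of 43 were called lower (33.9% of all genes). In such bulk samples, fewer photosynthetic cells and less of these RNAs per cell cannot be told apart.

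The classes differed in how many members passed. All 21 photosystem genes were called lower, with log2 fold changes from -0.64 to -1.67, and so were all 5 Rubisco genes, from -0.93 to -1.48. Of the 17 antenna genes 8 were called lower, namely LHCA2, LHCB1.2, LHCB1.3, LHCB2.1, LHCB2.2, LHCB3, LHCB4.2 and LHCB5. The antenna median was -0.63, the photosystem median -0.96 and the Rubisco median -1.06. Within the antenna, 7 of 13 LHCB and 1 of 4 LHCA genes were called lower, with medians of -0.94 and -0.60. Their median ratios of the highest to the lowest mock library were 3.32 and 2.79. The difference between the classes was not tested.

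**Figure D3:**
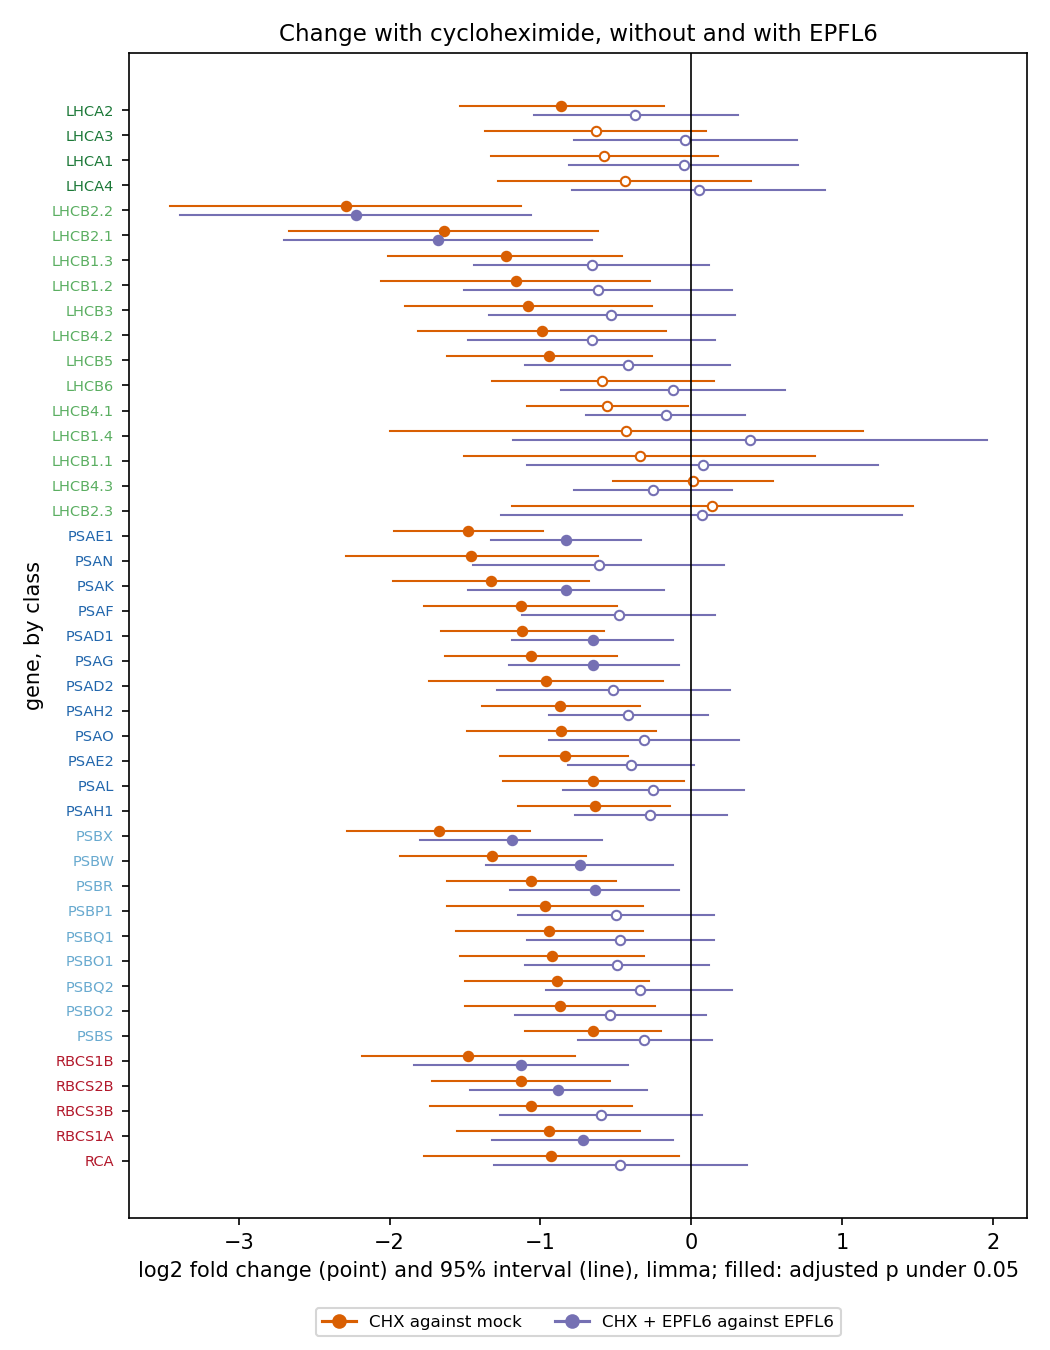
Log2 fold change with its 95% interval for each gene with cycloheximide, without the peptide (CHX against mock, orange) and with it (CHX plus EPFL6 against EPFL6, violet); filled points have an adjusted p under 0.05. Filled orange points number 34 and filled violet points 12, and LHCB2.2 lies farthest left in both.

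Among the LHCA genes, whose products surround photosystem I, LHCA2 (AT3G61470, chr3:22745514-22747444 in TAIR10.1) was the only one called. It was at 50424, 81166 and 32235 in mock and at 26413, 32986 and 25513 in CHX, and the lowest mock library fell inside the CHX range. The log2 fold change was -0.86 ± 0.31 (adjusted p = 0.024), and the call was lost when mock replicate 1 or 2 or CHX replicate 1 or 3 was left out (adjusted p of 0.051 to 0.095). LHCA4, the most abundant LHCA per kilobase, was at 70466, 104137 and 34516 in mock and at 43662, 53607 and 43393 in CHX, and its groups overlapped. Its change of -0.44 ± 0.38 was not called (adjusted p = 0.30, interval -1.28 to 0.40), but it was -0.88 (adjusted p = 0.027) without mock replicate 3. LHCA1 and LHCA3 were at -0.58 ± 0.34 and -0.63 ± 0.33 and were not called.

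LHCB2.2 (AT2G05070, chr2:1799234-1800472) fell most of all members. It was at 17347, 27613 and 5092 in mock, 17731, 22166 and 8150 in EPFL6, 3103, 2628 and 2544 in CHX, and 2750, 3606 and 3184 in CHX plus EPFL6. All 6 libraries with cycloheximide were below all 6 without it. The log2 fold change for CHX against mock was -2.29 ± 0.53, a 4.90-fold drop (adjusted p = 0.002). LHCB2.1 was at 34636, 47906 and 12315 in mock and at 10091, 7421 and 8962 in CHX, without overlap, and changed by -1.64 ± 0.46 (adjusted p = 0.0069). Since 29.5% of the 50-base stretches of LHCB2.2 and 23.6% of those of LHCB2.1 occur elsewhere in the genome, the counting may have split or lost reads between them. Their sum, 48303 ± 29230 in mock and 11583 ± 1573 in CHX, does not depend on how they were divided between the pair.

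LHCB2.3, the third gene for LHCB2, was rare and varied widely between libraries. It was at 685, 1357 and 186.5 in mock and at 487, 729 and 654 in CHX, so the CHX libraries lay inside the mock range. The log2 fold change was 0.14 ± 0.60 (adjusted p = 0.84, interval -1.19 to 1.47).

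LHCB1.3 (AT1G29930, chr1:10477885-10479114), the most abundant antenna gene per kilobase, was at 227264, 427959 and 156749 in mock and at 96749, 130434 and 92759 in CHX, without overlap. It fell by 1.23 ± 0.35 on the log2 scale (adjusted p = 0.0074). LHCB1.2 was at 65542, 123825 and 35705 in mock and at 29351, 35701 and 24620 in CHX, where the lowest mock and the highest CHX library almost met, and fell by 1.16 ± 0.40 (adjusted p = 0.021). That call was lost without mock replicate 2 (adjusted p = 0.082) or CHX replicate 3 (adjusted p = 0.066). LHCB1.1 was at 58382, 101470 and 22195 in mock and at 32533, 48380 and 40898 in CHX, inside the mock range, and its change of -0.34 ± 0.53 was not called (adjusted p = 0.56).

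The makeup of the LHCB1 trio differed with cycloheximide. LHCB1.1 gave 16.6%, 15.5% and 10.3% of the summed value of LHCB1.1 to LHCB1.3 in the mock libraries and 20.5%, 22.6% and 25.8% in the CHX libraries, without overlap. It gave 10.8% to 16.0% in EPFL6 and 18.2% to 22.2% in CHX plus EPFL6, again without overlap. LHCB1.3 gave 67.8 ± 4.59% in mock and 60.1 ± 1.33% in CHX. These shares were picked after their values were seen and were not tested, and 20.5%, 10.7% and 17% of the 50-base stretches of LHCB1.1, LHCB1.2 and LHCB1.3 occur elsewhere in the genome.

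Of the other antenna genes, LHCB3, the third protein of the trimers, was at -1.08 ± 0.37, LHCB4.2, a gene for CP29, at -0.99 ± 0.37 and LHCB5, the gene for CP26, at -0.94 ± 0.31, with adjusted p of 0.019, 0.029 and 0.015. All 3 calls were lost without mock replicate 2, those of LHCB3 and LHCB4.2 also without mock replicate 1 or CHX replicate 3, and that of LHCB4.2 without CHX replicate 1 or 2. Over the alternatives the highest adjusted p was 0.15 for LHCB3, 0.21 for LHCB4.2 and 0.13 for LHCB5. LHCB4.1, the other main CP29 gene, was at -0.56 ± 0.24 and missed the threshold (adjusted p = 0.053), which it passed with edgeR (0.038) and DESeq2 (0.019). LHCB6, the gene for CP24, was at -0.59 ± 0.33 and LHCB4.3 at 0.01 ± 0.24, neither called.

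PSAE1 (AT4G28750, chr4:14202758-14204061), one of a pair of genes for a subunit on the stromal face of photosystem I, had the largest fall of the PSA genes. It was at 12915, 19073 and 9658 in mock, 13749, 15675 and 9708 in EPFL6, 5066, 4976 and 4384 in CHX, and 6871, 7042 and 7674 in CHX plus EPFL6. CHX was lowest, CHX plus EPFL6 lay above it without overlap, and the 6 libraries without cycloheximide lay above both. For CHX against mock the log2 fold change was -1.48 ± 0.23 (adjusted p = 9.9e-05), the smallest adjusted p of the members. Its paralog PSAE2 was at -0.84 ± 0.19 (adjusted p = 0.0018).

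PSAL, a subunit at the docking side for LHCII and the most abundant PSA transcript per kilobase, was at 59460, 89266 and 39938 in mock and at 34361, 44369 and 36122 in CHX, with an overlap of the lowest mock and the highest CHX library. Its change of -0.65 ± 0.27 was called (adjusted p = 0.047), but not when any of 8 libraries was left out, mock replicate 2 among them (adjusted p = 0.20). PSAN, a lumenal subunit, was at -1.46 ± 0.38, PSAK at -1.33 ± 0.29 and PSAF, which takes part in plastocyanin docking, at -1.13 ± 0.29. PSAD1 and PSAD2, paralogs for the ferredoxin-docking subunit, were at -1.12 ± 0.24 and -0.96 ± 0.35. PSAH1 had the smallest change of the PSA genes, at -0.64 ± 0.23 (adjusted p = 0.023). The calls of PSAD2 and PSAH1 were lost without mock replicate 1 or 2, and that of PSAO, at -0.86 ± 0.28, without mock replicate 2.

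PSBX (AT2G06520, chr2:2587729-2588448), a small subunit of photosystem II, was at 20280, 30182 and 13454 in mock, 21249, 28344 and 15170 in EPFL6, 6766, 6521 and 5737 in CHX, and 8176, 9982 and 9356 in CHX plus EPFL6. The 3 CHX libraries lay below the lowest library of every other group. The log2 fold change for CHX against mock was -1.67 ± 0.27, a 3.19-fold drop (adjusted p = 0.00017). PSBR, the most abundant PSB transcript per kilobase, was at 84035, 118547 and 59206 in mock and at 38596, 43585 and 39004 in CHX, without overlap, and changed by -1.06 ± 0.25 (adjusted p = 0.0026).

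The subunits of the oxygen-evolving complex were all called lower, PSBO1 by -0.92 ± 0.28, PSBO2 by -0.87 ± 0.29, PSBP1 by -0.97 ± 0.29, PSBQ1 by -0.94 ± 0.28 and PSBQ2 by -0.89 ± 0.28, with adjusted p of 0.0094 to 0.016. The call of PSBO2 was lost without mock replicate 2. PSBW was at -1.32 ± 0.28. PSBS, which senses lumen acidity for the dissipation of excess light, was the least changed PSB gene at -0.65 ± 0.20 (adjusted p = 0.012, but 0.051 without mock replicate 2). Each of the 9 PSB genes had all CHX libraries below all mock libraries.

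RBCS1B (AT5G38430, chr5:15383167-15385320) had the largest change of the Rubisco genes. It was at 66566, 61722 and 33674 in mock, 56291, 65972 and 35958 in EPFL6, 19283, 19370 and 17182 in CHX, and 16862, 34797 and 21685 in CHX plus EPFL6. Mock and CHX did not overlap, and CHX plus EPFL6 replicate 2 was far above the other cycloheximide libraries. The log2 fold change for CHX against mock was -1.48 ± 0.32 (adjusted p = 0.0013). RBCS1A (AT1G67090, chr1:25048158-25049667) was at 407682, 554641 and 326108 in mock and at 177522, 262530 and 222928 in CHX, without overlap, and changed by -0.94 ± 0.27 (adjusted p = 0.0081).

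RBCS2B and RBCS3B, neighbours of RBCS1B on chromosome 5, were at -1.13 ± 0.27 and -1.06 ± 0.30. The sum of the 3 neighbours was 230005 ± 66808 in mock and 99794 ± 13185 in CHX. It does not depend on how reads were divided among them, but the counting may also have lost reads. Of the 50-base stretches of RBCS1B, RBCS2B and RBCS3B, 11.96%, 16.88% and 16.55% occur elsewhere in the genome. RCA (AT2G39730, chr2:16570746-16573692), which keeps Rubisco active by removing inhibitory sugar phosphates, was at 187192, 231257 and 83353 in mock and at 70116, 94405 and 79595 in CHX, with mock replicate 3 inside the CHX range. Its change of -0.93 ± 0.38 was called (adjusted p = 0.044). Losses of the call included the fits without mock replicate 1 or 2 (0.13 and 0.17) or any CHX library (0.054 to 0.12). Over 25 alternatives the call held in 14.

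The count of lower calls rested on mock replicate 2 more than on any other library. Without it, 22 of 43 members were called lower (36.9% of all genes), and without mock replicate 3, 39 were (37.3%). Whichever of the 12 libraries was left out, 22 of the 34 calls held. Under every 1 of 25 alternatives 11 held, namely those of LHCB2.2, PSAD1, PSAE1, PSAE2, PSAF, PSAG, PSAK, PSBW, PSBX, RBCS1B and RBCS2B.

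The same question was asked in the presence of the peptide by comparing CHX plus EPFL6 with EPFL6, a pair of groups that shares no library with CHX and mock but shares the variance of the fit. Here 12 of 43 members were called lower and 0 higher (27.9%, background 37.7% lower and 40.2% higher), with a median log2 fold change of -0.49 against 0.03 for all genes. The 0 higher calls held also at an unadjusted p under 0.05 and with edgeR and DESeq2, which called 12 and 13 lower (38.3% and 34.1% of all genes). In 11 of 43 members the groups did not overlap (background 38.8%). The shares called lower and without overlap are below the background, so the count of lower calls by itself does not set the members apart. The 0 higher calls stand beside 40.2% of all genes, and 39 of 43 fitted changes were negative. Because the members vary together between libraries, these are not independent observations.

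The 12 were LHCB2.1, LHCB2.2, PSAD1, PSAE1, PSAG, PSAK, PSBR, PSBW, PSBX, RBCS1A, RBCS1B and RBCS2B, and all 12 were also called lower in CHX against mock. LHCB2.2 changed by -2.22 ± 0.53 (adjusted p = 0.0025) and LHCB2.1 by -1.68 ± 0.46 (adjusted p = 0.0063), close to their values without the peptide. PSBX changed by -1.19 ± 0.27 (adjusted p = 0.002), RBCS1B by -1.13 ± 0.32 (adjusted p = 0.0072) and PSAE1 by -0.83 ± 0.23 (adjusted p = 0.0057). The calls of PSAD1, PSAG, PSAK, PSBR, PSBW and RBCS1A were lost when some 1 library was left out. The count was 7 without EPFL6 replicate 1, 6 without EPFL6 replicate 2, 23 without EPFL6 replicate 3 and 6 without CHX plus EPFL6 replicate 1. The share of all genes called lower in these fits was 35.7%, 35.7%, 36.3% and 35.7%.

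The fitted fall was larger in CHX against mock than in CHX plus EPFL6 against EPFL6 for 40 of 43 members. The difference itself, the interaction of peptide and cycloheximide, was called for 0 of 43 (background 0.366% higher and 1.14% lower; limma, 0 at an unadjusted p under 0.05; edgeR 0; DESeq2 0, with 1 under 0.05). The median interaction was 0.46, but 0.15 without mock replicate 2, 0.22 without EPFL6 replicate 3, 0.69 without EPFL6 replicate 2 and 0.78 without mock replicate 3, where 21 members had an unadjusted p under 0.05 and still 0 were called. The largest was 0.85 ± 0.54 for PSAN (adjusted p = 0.42, interval -0.34 to 2.03). The cycloheximide change was thus not shown to differ with the peptide, and the intervals allow differences of over 1 log2 unit for such genes.

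EPFL6 alone gave no call among the members. In EPFL6 against mock 0 of 43 were called (background 0% higher and 0.0172% lower; limma, 0 at an unadjusted p under 0.05; edgeR 0 and DESeq2 0). The log2 fold changes ran from -0.17 ± 0.20 for PSBS to 0.41 ± 0.24 for LHCB4.3, with a median of -0.02. That median rested on single libraries: it was 0.27 without mock replicate 2 and 0.23 without EPFL6 replicate 3, with 42 and 43 members above 0, and -0.35 without mock replicate 3 and -0.23 without EPFL6 replicate 2, each with 42 below 0, and 0 members were called in any of these fits. No member had all libraries of 1 group above those of the other (background 3.68% higher and 3.1% lower). RBCS1A was at 399117, 567892 and 326177 in EPFL6, almost the mock values, with a log2 fold change of 0.00 ± 0.27 and an interval of -0.60 to 0.61. For LHCB1.4, with the widest interval of -1.56 to 1.59, large changes in either direction could not be seen.

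In the presence of cycloheximide most fitted differences with the peptide were positive, and none passed the test. In CHX plus EPFL6 against CHX, 42 of 43 log2 fold changes were above 0, with a median of 0.42 where that of all genes was 0, and a range from -0.05 ± 0.46 for LHCB2.1 to 0.84 ± 0.71 for LHCB1.4. In 24 members, 8 of the antenna and 16 of the photosystems but 0 of Rubisco, all CHX plus EPFL6 libraries lay above all CHX libraries (background 18% higher). None of the 43 was called (background 5.89% higher and 7.63% lower; limma, 3 at an unadjusted p under 0.05, all higher; edgeR 0, with 1; DESeq2 0, with 5). Because the members vary together between libraries, 42 values of the same sign are not 42 independent observations.

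PSAE1 (0.58 ± 0.23), PSAF (0.66 ± 0.29) and PSAE2 (0.43 ± 0.19) had the smallest adjusted p in this comparison, at 0.11, 0.15 and 0.16. PSAN, at 6819, 7850 and 6298 in CHX and at 9704, 15180 and 12694 in CHX plus EPFL6, did not overlap and changed by 0.82 ± 0.38 (adjusted p = 0.17). The fit pools the spread of all 4 groups, and that of the members was wider without cycloheximide. A fit of only these 6 libraries called 6 members higher (background 2.24%), namely LHCB3 at 0.55 ± 0.12, PSAD2 at 0.45 ± 0.10, PSAE1 at 0.58 ± 0.09, PSAF at 0.66 ± 0.14, PSAN at 0.82 ± 0.17 and PSBX at 0.53 ± 0.10, with adjusted p of 0.02 to 0.045. LHCB2.1, LHCB2.2 and LHCB2.3 were at -0.05, 0.20 and 0.16 and their groups overlapped.

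**Figure D4:**
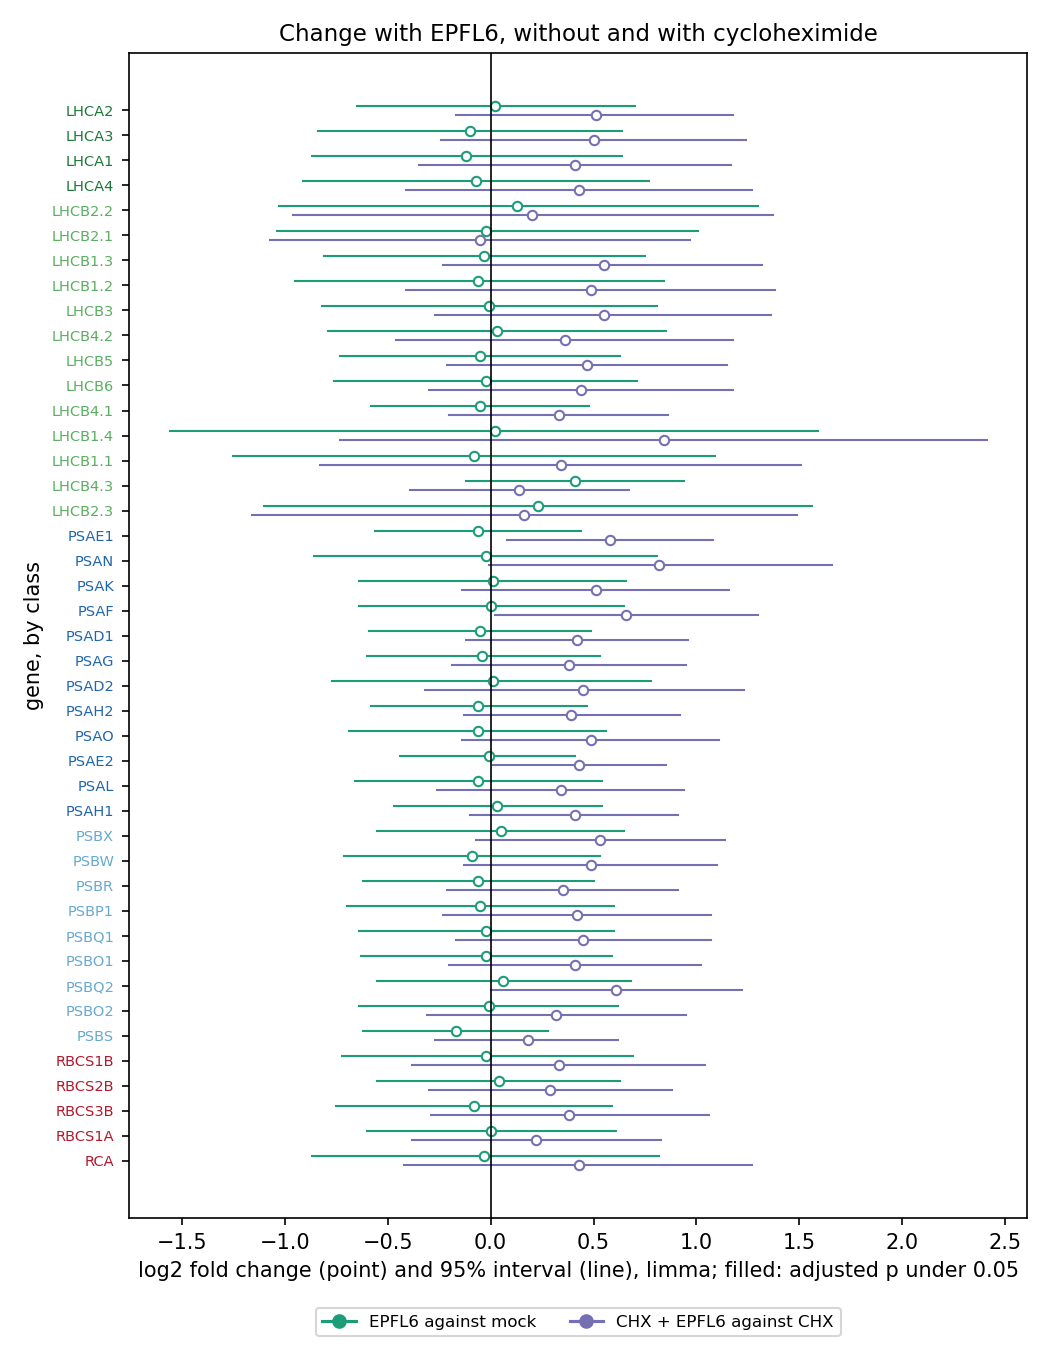
Log2 fold change with its 95% interval for each gene with EPFL6, without cycloheximide (EPFL6 against mock, green) and with it (CHX plus EPFL6 against CHX, violet), in the fit of all 4 groups. No point is filled, since no adjusted p was under 0.05, and the violet points lie right of 0 in 42 of 43 genes.

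Other genes of the pathway, listed with earlier results of these data known, are given for CHX against mock beside the background of 38.3% lower and 40.9% higher. Of 9 further LHC family genes 6 were lower and 0 higher. ELIP1 and ELIP2, early light-induced proteins, changed by -2.81 ± 0.18 and -2.3 ± 0.36, and OHP1, a small relative needed for photosystem assembly, by -1.63 ± 0.30. Of 18 genes of electron transport and ATP synthase 15 were lower and 1 higher, the ferredoxin genes FD1 and FD2 by -2.25 ± 0.17 and -2.15 ± 0.32 and PETM, of the cytochrome b6f complex, by -1.69 ± 0.28. The exception, PSBP-2, was at 57.1 to 89.1 in mock and 97.5 to 105 in CHX, and its rise of 0.50 ± 0.19 (adjusted p = 0.028) was lost without mock replicate 1 or 3 or CHX replicate 2 or 3 and turned to -0.25 on the scale of library size alone.

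Of 17 Calvin cycle genes 9 were lower and 1 higher. CP12-1 and CP12-2, which bind and inactivate enzymes of the cycle in the dark, were at -1.53 ± 0.20 and -1.22 ± 0.36 and RPI3, a ribose-5-phosphate isomerase, at -1.39 ± 0.17, while the relative CP12-3 rose by 2.32 ± 0.09. Of 9 genes for Rubisco assembly 7 were lower and 0 higher, with the chaperonin subunits CPN60B2 at -1.39 ± 0.14 and CPN60A1 at -1.28 ± 0.13. Among 4 genes that insert antenna proteins into the thylakoid, 3 were lower, with CPSRP43 at -1.36 ± 0.21, and CPFTSY was higher at 0.57 ± 0.15 but at -0.18 on the scale of library size alone.

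Chlorophyll synthesis was mixed, with 7 of 19 genes lower and 4 higher. CHLI2, of magnesium chelatase, was at -1.09 ± 0.20, DVR at -1.02 ± 0.24 and CRD1 at -0.97 ± 0.30, the last lost without mock replicate 2. HEMA2, for glutamyl-tRNA reductase at the start of the pathway, was at 997, 980 and 1050 in mock and at 26182, 36266 and 43126 in CHX, a rise of 5.09 ± 0.14 (adjusted p = 1.1e-10). HEMA1 rose by 0.98 ± 0.24, and PORA, at 10.2 to 22.4 in mock and 29.4 to 47.8 in CHX, by 1.16 ± 0.43, a call lost without mock replicate 1 or 2 or CHX replicate 2. Of 8 genes of chlorophyll breakdown 5 were lower and 1 higher, with the chlorophyllases CLH1 and CLH2 at -2.77 ± 0.79 and -2.04 ± 0.33, NYC1 at -1.17 ± 0.27 and ACD2 at 0.80 ± 0.14. On the scale of library size alone the calls of HEMA1, PORA and ACD2 were lost.

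Of 22 regulators of light response and plastid development, 16 were lower and 2 higher. GLK2 was at 5934, 7295 and 3937 in mock and at 1598, 917 and 1120 in CHX, without overlap, and changed by -2.23 ± 0.25 (adjusted p = 9e-06). PHYA, the photoreceptor phytochrome A, was at -2.25 ± 0.12 and GNC, a GATA factor that promotes greening, at -1.61 ± 0.26. BBX22, a B-box protein of light signalling that RefSeq names LZF1, rose by 1.22 ± 0.11 and PIF5, a repressor of light responses, by 1.16 ± 0.12.

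The 8 plastid-encoded partners, among them RBCL for the large Rubisco subunit and PSAA and PSBA for reaction centre proteins, showed no call in this comparison (limma; 0 at an unadjusted p under 0.05). Their log2 fold changes ran from -0.29 to 0.19, but on the scale of library size alone, where the median of all genes moved from 0.02 to -0.73, RBCL was at -0.56 and PSBA at -0.75. Plastid transcripts mostly lack poly(A) tails and made up 0.0344 ± 0.00456% of reads in mock, so these values describe what poly(A) selection kept.

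**Figure D5:**
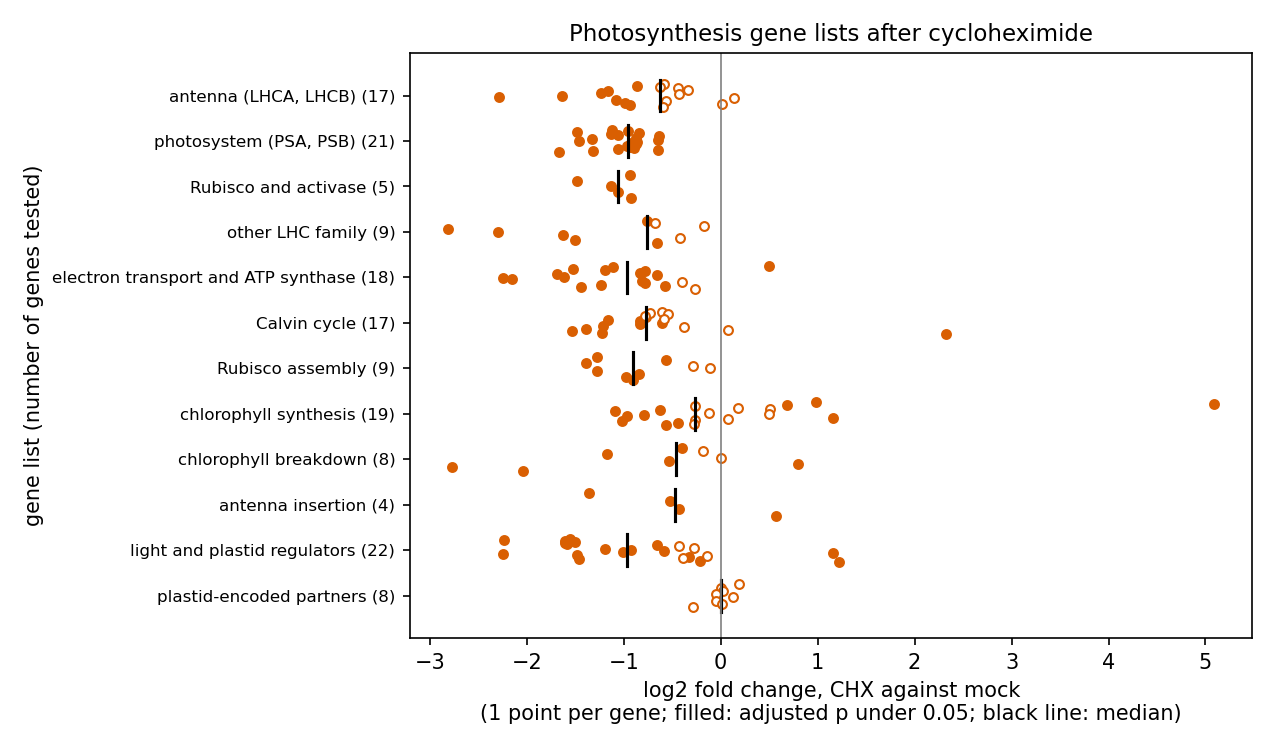
Log2 fold change of CHX against mock for each gene of the 3 member classes and of the 9 other lists, 1 point per gene, filled where the adjusted p was under 0.05, with a line at each median. HEMA2 at 5.09 stands apart on the right, and the 8 plastid-encoded genes lie around 0.

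In CHX plus EPFL6 against EPFL6 (background 37.7% lower and 40.2% higher) 10 of the 18 electron transport and ATP synthase genes were called lower and 0 higher, 6 of 17 Calvin cycle genes lower and 1 higher, 6 of 9 Rubisco assembly genes lower and 1 higher, and 15 of 22 regulators lower and 2 higher. Other lists were mixed, with 3 of 19 chlorophyll synthesis genes lower and 4 higher, 3 of 8 chlorophyll breakdown genes lower and 2 higher, and 1 of 4 antenna insertion genes lower and 1 higher, while 6 of the 9 further LHC family genes were lower and 0 higher. None of the 8 plastid-encoded partners was called (limma; 0 at an unadjusted p under 0.05; edgeR 0 and DESeq2 0). Their log2 fold changes of 0.27 to 0.49 turned to between -0.22 and -0.46 on the scale of library size alone, and all 8 were called higher without EPFL6 replicate 2. GLK2 was at -2.07 ± 0.25, HY5 at -1.60 ± 0.14 and FD1 at -2.02 ± 0.17 there, while HEMA2 was at 4.74 ± 0.14. In CHX plus EPFL6 against CHX few genes of these lists were called: the Rubisco chaperone RBCX2 at 0.37, the chlorophyll breakdown gene SGR1 at 0.38, BBX22 at 0.71 and BBX21 at -0.25. The calls of RBCX2, SGR1 and BBX21 were each lost when some 1 library was left out, CHX replicate 2 among them.

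Markers of other tissues moved with cycloheximide as well, and their part in the members' changes was not tested. The summed value of 11 root markers was 8347 to 11347 in mock, 10316 to 12490 in EPFL6, 2346 to 2873 in CHX and 1891 to 2421 in CHX plus EPFL6, with 8 of 11 called lower and 3 higher in CHX against mock. The 3 epidermis markers, all lower, summed to 14712 to 15496 in mock and 5773 to 7451 in CHX. The 3 vascular markers, with 2 higher, summed to 9848 to 10799 and 18741 to 20432, and the 3 guard cell markers, with 1 higher, to 1495 to 1596 and 1703 to 2032. Of 8 seed markers 7 were in the table and 2 were tested, of which SESA1 was called higher in CHX against mock. The 7 summed to 167 to 337 in mock and 152 to 296 in EPFL6. Their sum was 2035 to 2626 in CHX but 132 to 1005 in CHX plus EPFL6. No marker of the root, epidermis, vascular or guard cell lists was at 0 in a whole group, and 1 seed marker was at 0 in all EPFL6 libraries. Within mock, the summed root markers were lowest in replicate 2, at 8347, where 41 of 43 members were highest. They were highest in replicate 1, at 11347, and not in replicate 3, at 10627, where 42 of 43 members were lowest. Within EPFL6 the root sum was lowest in replicate 2, at 10316, where 42 of 43 members were highest. It was highest in EPFL6 replicate 3, at 12490, where 42 of 43 members were lowest. In CHX plus EPFL6 it was lowest in replicate 1, at 1891, where 39 of 43 members were lowest too. In CHX it was lowest in replicate 1, at 2346, where 10 of 43 members were lowest.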

How the data were processed

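The authors deposited 1 table of scaled read signal per gene for all 12 libraries: reads divided by 1 size factor per library, as read off the values. The submitters' processing notes name DESeq2 1.26.0, the aligner STAR (2.7.6a), the TAIR10 genome and the counter featureCounts (2.0.0). The counting mode and strand setting are not given in the sources used here. Whole reads were recovered by multiplying with the factor (100% of values within 1e-06 of a whole number), and edgeR 4.0.16 on them called 35 members in CHX against mock. Library depths were 40.2 to 106.6 M reads (M for 1e+06).

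Genes reaching 10 or more in 3 or more libraries (23225 of 26702) were fitted on log2(value + 1) with limma 3.58.1 in R 4.3.3, with an intensity trend, robust moderation and all 4 groups in 1 fit. This scale understates changes of low genes. P-values are two-sided and Benjamini-Hochberg adjusted over all genes tested. The steps were run on simulated data with genes drawn independently, scored for EPFL6 against mock and CHX plus EPFL6 against CHX alone. That run covers neither the cycloheximide comparisons nor the shared movement of the members between libraries. Locus tags of RefSeq TAIR10.1 matched 26514 genes and all 43 members, and gave coordinates, exon lengths and promoters. Alternatives were other pseudocounts, filters and scalings, edgeR, DESeq2 1.42.0, smaller fits, a replicate block and leaving out libraries.

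The members, lists and alternatives were chosen with earlier results of these data known. Values per library are given for each class's largest change past the threshold and its most abundant gene. LHCB1.1, LHCB1.2, LHCB2.1, LHCB2.3, PSAN, RCA, PSBS, LHCB4.1 and the printed promoters were chosen after their values were seen. Other lists give up to 3 called genes per direction, and 1 result of these lists is not reported here.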

Additional observations from a re-analysis of the deposited data

Results flagged for a closer look

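The peptide's effect on BBX22, a B-box protein of light signalling that is not itself a photosynthesis gene, differed with and without cycloheximide by a test of that difference. BBX22 was at 2374, 2748 and 2554 in mock, 2479, 2350 and 2365 in EPFL6, 6697, 6256 and 4996 in CHX, and 9647, 8831 and 10824 in CHX plus EPFL6. The interaction was 0.80 ± 0.16 on the log2 scale (adjusted p = 0.037, limma), with all 3 CHX plus EPFL6 libraries above all 3 CHX libraries and the groups without cycloheximide overlapping. It stayed under the threshold in 8 of 24 alternatives and above it in the others, among them each single library left out except CHX replicate 1, with values of 0.59 to 0.97 and adjusted p of 0.00041 to 0.34.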

How the results depend on the processing

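Of 248 recomputed counts of called members, 235 stayed within 1.5 times the reported count or, where that was 0, stayed at 0. Most reported counts were 0, so the 235 are mainly counts that stayed at 0, and the counts above 0 varied more. No called direction of a member or of BBX22 turned. With 1 library left out, lower calls in CHX against mock ranged from 22 (without mock replicate 2, 36.9% of all genes) to 39 (without mock replicate 3, 37.3%). They were 11, 22 and 40 without replicate 1, 2 or 3 of all groups (33.9%, 34.7% and 35.5% of all genes), alternatives chosen after seeing the data. The 11 of 43 members are a smaller share than that of all genes in the same fit. In CHX plus EPFL6 against EPFL6 lower calls ranged from 6 (without EPFL6 replicate 2 or CHX plus EPFL6 replicate 1, each 35.7% of all genes) to 23 (without EPFL6 replicate 3, 36.3%). They were 7 without EPFL6 replicate 1 (35.7%), and 1, 7 and 31 without replicate 1, 2 or 3 of all groups (32.7%, 34.5% and 34.8%). On the scale of library size alone they were 40 and 39, where 62.3% and 62.2% of all genes were called lower. The median of all genes moved there from 0.02 to -0.73 and from 0.03 to -0.70, and the lower share of all calls rose from 48.4% to 72.0% and from 48.4% to 72.9%. LHCB4.3, not called in CHX against mock at 0.01, was at -0.74 and called there. Higher calls in CHX plus EPFL6 against CHX were 6 in a fit of only those groups (2.24% of all genes) and 1 without mock replicate 2 (6.1%). Correlations of the deviations of same-numbered libraries over all genes were -0.12, 0.28 and 0.42 for mock and EPFL6 and 0.16, 0.09 and -0.18 for CHX and CHX plus EPFL6, not all over 0.1, so the numbers were not taken as pairs. Over the 43 members they were 0.59, 0.82 and 0.92, and 0.53, -0.39 and -0.06. For mock and CHX they were -0.07, 0.24 and 0.21 over all genes and 0.19, 0.42 and 0.15 over the members. Of these 6 mock and CHX libraries, 4 correlated best with their own number, over all genes and over the members alike. Between mock and EPFL6, 4 of 6 libraries correlated best with their own number over all genes and 6 of 6 over the members, a hint from the data and not from the labels, and 2 of 6 did between CHX and CHX plus EPFL6 in both. A fit with the replicate block called 35 members lower in CHX against mock (38.5% of all genes) and 15 in CHX plus EPFL6 against EPFL6 (38%). It called 0 in EPFL6 against mock, CHX plus EPFL6 against CHX and the interaction. The causes were not tested.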
